A study of Mus musculus with 10 samples.

Results

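The genes described here are the constant regions of the mouse antibody heavy chain (Ighm, Ighd, Igha, Ighg1, Ighg2b, Ighg2c, Ighg3 and Ighe), the constant region of the kappa light chain (Igkc) and the J chain (Jchain). They were chosen by symbol, and all 10 were found among the 55414 genes of the count table. The list was drawn up with earlier results of the same libraries known, so the differences between genotypes given here describe these libraries and carry no test of their own. RNA sequencing of polyadenylated RNA had been carried out on spleen cells isolated with magnetic beads against F4/80, which mature mouse macrophages carry on their surface. There were 5 libraries labelled Fpr2KO, from mice lacking formyl peptide receptor 2, and 5 from C57BL/6N mice, called WT here. The sources used here do not give age, sex, the strain background of the knockout line or the part of Fpr2 removed. The labels do not say that replicates came from separate animals, so each p-value reflects the spread among libraries alone, which may be technical.

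Antibodies are made by B cells and, in large amounts, by the plasma cells that B cells become. A resting B cell splices its heavy chain transcript to Ighm (IgM) and Ighd (IgD), and class switching later joins the same variable region to an IgG, IgA or IgE constant region further along the locus. The J chain is a small protein that links IgM into pentamers and IgA into dimers for secretion. Macrophages do not rearrange antibody genes.

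The 8 heavy chain genes lie on the minus strand of chromosome 12 in GRCm38, from Ighm at 113418558 to 113422730 down to Igha at 113254830 to 113260236. Igkc occupies 70726435 to 70726966 of chromosome 6 (plus strand) and Jchain 88519809 to 88527891 of chromosome 5 (minus strand). The heavy chain genes are related in sequence, which bears on how surely a read can be given to one of them. The first 80 coding bases of the first constant exon are shown for Igha and Ighm, the 2 genes whose share of the heavy chain differed most between genotypes, and for the 4 IgG genes, with capitals in Ighg2c, Ighg1 and Ighg3 where the base is not that of Ighg2b at the same position (transcript sequences of GENCODE M21, minus strand, 5′ to 3′). In GRCm38 the stretches are chr12:113260157-113260236 (Igha), chr12:113422651-113422730 (Ighm), chr12:113307854-113307933 (Ighg2b), chr12:113288853-113288932 (Ighg2c), chr12:113330444-113330523 (Ighg1) and chr12:113361153-113361232 (Ighg3).
Igha: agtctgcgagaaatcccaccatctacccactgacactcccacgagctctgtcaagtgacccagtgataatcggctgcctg
Ighm: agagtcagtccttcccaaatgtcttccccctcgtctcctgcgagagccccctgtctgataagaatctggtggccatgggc
Ighg2b: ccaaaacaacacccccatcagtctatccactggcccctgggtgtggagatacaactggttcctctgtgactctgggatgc
Ighg2c: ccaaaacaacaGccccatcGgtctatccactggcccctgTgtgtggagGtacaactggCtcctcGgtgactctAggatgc
Ighg1: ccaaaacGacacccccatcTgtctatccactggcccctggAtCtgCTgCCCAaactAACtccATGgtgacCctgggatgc
Ighg3: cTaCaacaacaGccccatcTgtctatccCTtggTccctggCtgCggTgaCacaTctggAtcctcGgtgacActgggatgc
In this stretch Ighg2c differed from Ighg2b at 7 of 80 bases, Ighg3 at 15 and Ighg1 at 17. Over the whole transcripts, 15.0% of the 31-base sequences of Ighg2c and 9.29% of those of Ighg2b also occur in another annotated gene, mostly in each other. The shared portion was 3.63% for Ighg3 and 1.72% for Ighg1, and 0% for Ighm, Igha, Ighe and Igkc. The split between Ighg2b and Ighg2c is therefore the least certain among the 10 members.

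The libraries held between 15865820 and 19060188 counts, and 14669 genes passed the filter on low counts, all 10 members among them. Fpr2 had 0 reads in the 5 Fpr2KO libraries and 1983 in the 5 WT libraries, which matches the labels. Markers of macrophages were abundant in both groups, with Adgre1, the gene of F4/80, at 525 ± 63.4 CPM (counts per 1000000 of the scaled library; SD, n = 5) in Fpr2KO and 524 ± 60.1 CPM in WT. B cell markers were present too, with the antigen receptor subunit gene Cd79a at 493 ± 113 CPM in Fpr2KO and 376 ± 82.7 CPM in WT. Estimates of erythroid and neutrophil markers leaned with genotype: all 10 erythroid genes tested had higher estimates in Fpr2KO and all 10 neutrophil genes lower ones, 10 and 7 of them at an unadjusted p under 0.05, as were 4.88% (higher) and 4.92% (lower) of all genes tested, and 0 past the false discovery rate (FDR) of 0.05. The summed erythroid level ran from 2169 to 4934 CPM in Fpr2KO and from 702 to 2893 CPM in WT, and the neutrophil level from 515 to 941 CPM in Fpr2KO and from 889 to 1493 CPM in WT. Of these 2 lists only Klf1, an erythroid transcription factor, had 0 reads in any library, which was WT replicate 3. Their part in the values below was not tested.

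Transcripts of the 10 members made up 6.15%, 4.92%, 3.72%, 5.13% and 2.23% of all counts in Fpr2KO replicates 1 to 5, and 3.28%, 3.34%, 6.58%, 2.86% and 6.25% in WT replicates 1 to 5. The groups overlapped almost completely, with means of 4.43 ± 1.504% in Fpr2KO and 4.46 ± 1.80% in WT (SD, n = 5 each). Exact 95% binomial intervals, which cover counting error only, ran from 2.22% to 2.24% in the lowest library and from 6.57% to 6.59% in the highest, far narrower than the spread between libraries. In bulk RNA, fewer cells of a type and less RNA per cell cannot be told apart.

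Set against gene length, the kappa light chain was the most abundant member, with 21266 ± 9335 CPM per kilobase of annotated exon in Fpr2KO and 21534 ± 8853 in WT (SD, n = 5). Ighm followed with 11953 ± 4501 CPM per kilobase in Fpr2KO and 14199 ± 6126 in WT, and Igkc lay above Ighm in each of the 10 libraries. Jchain came next, at 1548 ± 559 CPM per kilobase in Fpr2KO and 1543 ± 587 in WT. The step from Ighm to Jchain was larger than the spread of both genes in WT. Below Jchain the order was not settled: Ighg2c, Ighg2b, Igha and Ighg3 followed one another in WT with gaps smaller than their spread. The order also depends on the length used. Ighg2c has 1326 annotated exon bases and Ighg2b 2678, but their coding lengths are 1211 and 1214 bases. Per coding length Ighg2b had the larger mean part of the summed heavy chain level. It took 6.75% against 4.34% for Ighg2c in Fpr2KO, and 3.60% against 2.86% in WT. Ighd averaged 174 ± 28.6 CPM per kilobase in Fpr2KO and 148 ± 32.5 in WT, and Ighg1 89.4 ± 80.3 in Fpr2KO and 54.4 ± 31.4 in WT. Ighe was the lowest, at 0.547 ± 0.503 CPM per kilobase in Fpr2KO and 0.953 ± 0.628 in WT.

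**Figure D1:**
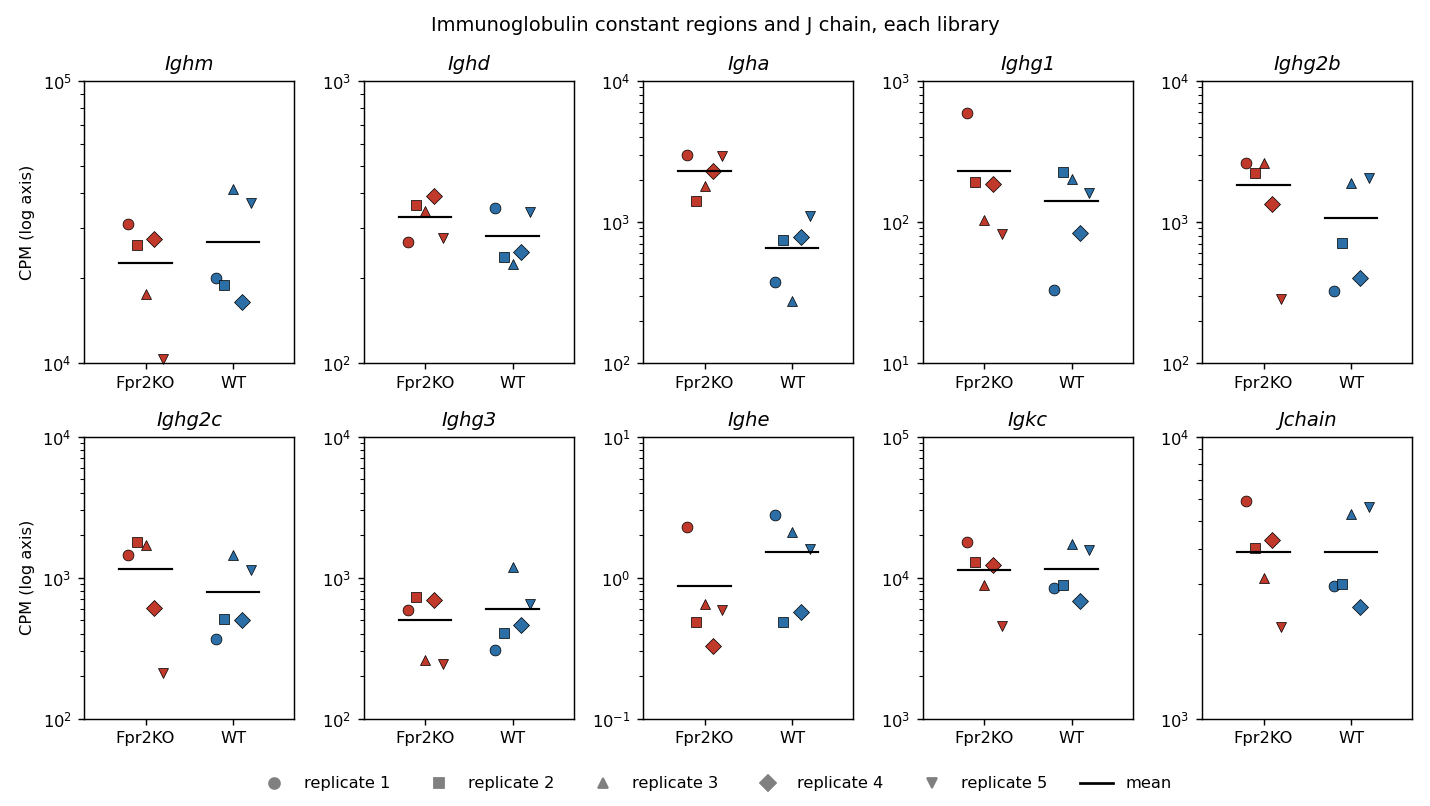
CPM of each member (log axis, its range set per panel) in every library, Fpr2KO in red and WT in blue, with a symbol for each replicate number and a black line at the group mean. Igha is the one panel in which the groups do not overlap, with 5 Fpr2KO libraries between 1409.7 and 2989 CPM and 5 WT libraries between 276 and 1104 CPM.

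Igha, which encodes the constant region of IgA, the main antibody of mucosal surfaces, was the member that differed most between genotypes. It had 2989, 1409.7, 1792, 2315 and 2944 CPM in Fpr2KO replicates 1 to 5, against 375, 748, 276, 786 and 1104 CPM in WT replicates 1 to 5. Every Fpr2KO library lay above every WT library. The means were 2289.9 ± 696 CPM in Fpr2KO and 658 ± 335 CPM in WT (SD, n = 5 each), a fitted fold change of 3.48 (log2 fold change 1.80, SE 0.40). Igha did not pass the FDR over all genes by edgeR (FDR = 0.201, unadjusted p = 0.00165). With DESeq2 it did (FDR = 0.00145), whereas in the 17 other fits the adjusted p ranged from 0.0877 to 0.431 with log2 fold changes of 1.60 to 2.06. Igha was 1 of 10 members with groups that did not overlap, and over all genes tested 1.39% had groups apart in this way, 0.825% with every Fpr2KO library above. By edgeR 0 of the 10 members passed the FDR, against 0.0682% of all genes, and 1 member had an unadjusted p under 0.05, against 9.8% of all genes. Because the genotype contrast was known when the members were listed, nothing is read from these counts.

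Ighm, Igkc and Jchain, which encode parts of pentameric IgM, overlapped between the genotypes. Their counts are per gene and do not separate secreted IgM from other uses of these genes. Ighm had 31206, 26235, 17512, 27470.3 and 10295 CPM in Fpr2KO replicates 1 to 5, and 20022, 18901, 41527, 16505.5 and 36939 CPM in WT replicates 1 to 5. WT replicates 3 and 5 were the highest and Fpr2KO replicate 5 the lowest, with the other libraries interleaved. The log2 fold change was -0.25 (SE 0.36, edgeR FDR 0.851). Jchain had 5897, 4043, 3142, 4287 and 2114 CPM in Fpr2KO replicates 1 to 5, and 2959, 3004, 5335, 2489 and 5627 CPM in WT replicates 1 to 5. Fpr2KO replicate 1 and WT replicates 3 and 5 were highest and Fpr2KO replicate 5 lowest, and the log2 fold change was 0.01 (SE 0.32, edgeR FDR 0.997). Igkc, which pairs with every heavy chain class, averaged 11313.5 ± 4966 CPM in Fpr2KO and 11456 ± 4710 CPM in WT (SD, n = 5), with a log2 fold change of -0.02 (SE 0.39, edgeR FDR 0.991). The signs of the Igkc and Jchain differences turned under other scalings and with single libraries left out.

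The IgG genes varied widely between libraries and overlapped between the genotypes. Ighg2b, one of the complement-fixing IgG classes of the mouse, had 2637, 2211, 2628, 1336 and 284 CPM in Fpr2KO replicates 1 to 5, against 325, 712, 1888, 404 and 2039.6 CPM in WT replicates 1 to 5. Ighg2c, the IgG2 class that C57BL/6 mice carry in place of IgG2a, had 1446, 1786, 1695, 610.1 and 209.6 CPM in Fpr2KO replicates 1 to 5 and 366, 512, 1458, 496 and 1141 CPM in WT replicates 1 to 5. For both genes Fpr2KO replicate 5 was the lowest of all 10 libraries, while Fpr2KO replicates 1 to 3 lay above the WT maximum for Ighg2b, as did replicates 2 and 3 for Ighg2c. The log2 fold changes were 0.76 (SE 0.73) for Ighg2b and 0.53 (SE 0.63) for Ighg2c, with edgeR FDRs of 0.754 and 0.808. Ighg1, the class that interleukin 4 favours, averaged 232 ± 208 CPM in Fpr2KO and 141 ± 81.3 CPM in WT (SD, n = 5), with a log2 fold change of 0.71 (SE 0.69, edgeR FDR 0.754). That difference rested on Fpr2KO replicate 1, at 593 CPM, and was -0.01 without it. Ighg3, the class often made against carbohydrate antigens, averaged 502 ± 234 CPM in Fpr2KO and 602 ± 349 CPM in WT (log2 fold change -0.26, SE 0.47, edgeR FDR 0.883), and its difference was 0.13 without WT replicate 3.

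Ighd marks B cells that have not yet become plasma cells, and its range over libraries was the narrowest of the 10 members. It ranged from 269 to 392.2 CPM in Fpr2KO and from 224 to 353 CPM in WT, so its highest library held 1.75 times its lowest, against 4.03 times for Ighm and 10.8 times for Igha. Ighd averaged 329.7 ± 54.3 CPM in Fpr2KO and 281 ± 61.8 CPM in WT (SD, n = 5), with a log2 fold change of 0.23 (SE 0.15, edgeR FDR 0.642). Ighe, the constant region of IgE, had 72 reads in all Fpr2KO libraries and 127 in all WT libraries. Its CPM ran from 0.328 to 2.28 in Fpr2KO and from 0.486 to 2.80 in WT, with a log2 fold change of -0.81 (SE 0.58, edgeR FDR 0.667).

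**Figure D2:**
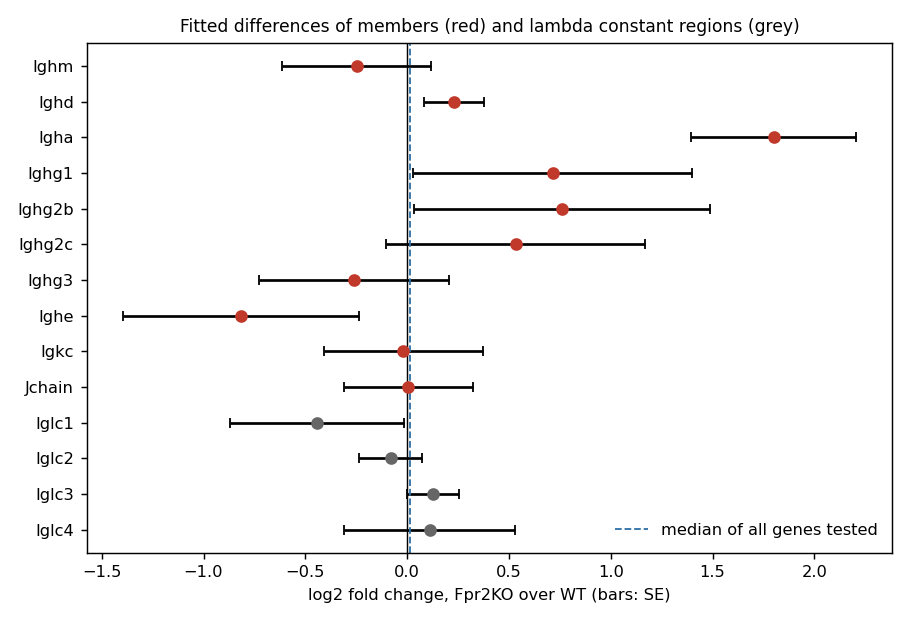
Fitted log2 fold change (Fpr2KO over WT, x axis) of the 10 members in red and of the 4 lambda light chain constant regions in grey, with bars of 1 SE and a dashed line at the median of all 14669 genes tested (0.01). Igha stands at 1.80 (SE 0.40), and each other gene shown lies between -0.81 and 0.76.

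The lambda light chain constant regions, which lie outside the members and replace kappa in a minority of mouse antibodies, were measured beside them. Iglc2 averaged 440 ± 89.6 CPM in Fpr2KO and 465 ± 92.4 CPM in WT (SD, n = 5; log2 fold change -0.08, SE 0.16, edgeR FDR 0.890), and Iglc3 129 ± 21.9 CPM in Fpr2KO and 118 ± 17.4 CPM in WT (log2 fold change 0.13, SE 0.13, edgeR FDR 0.758). Of their 31-base sequences, 19.6% (Iglc2) and 40.8% (Iglc3) occur in another gene, so the split between them is uncertain. Iglc1 had 405, 445, 380, 260.3 and 189 CPM in Fpr2KO replicates 1 to 5, and 349, 280.4, 343, 285 and 1022 CPM in WT replicates 1 to 5. WT replicate 5 stood far above the other 9 libraries, and the log2 fold change of -0.44 (SE 0.43, edgeR FDR 0.755) was 0.09 without it. Iglc4 held 90 reads in Fpr2KO and 82 in WT (edgeR FDR 0.953). Igkc had 12.0 ± 3.58 reads for each read of Iglc1 to Iglc4 in Fpr2KO and 11.05 ± 3.23 in WT (SD, n = 5), a ratio of raw reads that depends on the lengths of the genes.

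Isotype shares were computed within each library as the level of one constant region, per kilobase of annotated exon, over the sum of the 8. Igha took 5.51%, 3.08%, 5.36%, 5.12% and 15.5% of the heavy chain level in Fpr2KO replicates 1 to 5, against 1.22%, 2.48%, 0.420%, 2.97% and 1.87% in WT replicates 1 to 5. Each Fpr2KO library lay above each WT library, and replicate 5 far above the other Fpr2KO libraries. The CPM of Igha did not set replicate 5 apart, at 2944 CPM against 2989 CPM in Fpr2KO replicate 1. Ighm, the largest part of the sum, was lower in replicate 5 (10295 CPM) than in any other library. The mean share of Igha was 6.92 ± 4.92% in Fpr2KO and 1.79 ± 1.01% in WT (SD, n = 5). The difference of 5.13 percentage points was 2.97 once Fpr2KO replicate 5 was left out. By raw reads the share of Igha ran from 4.28% (exact 95% binomial interval 4.23% to 4.34%) to 20.5% (20.4% to 20.7%) in Fpr2KO, and from 0.590% (0.573% to 0.607%) to 4.14% (4.07% to 4.21%) in WT.

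Ighm correspondingly took 81.3%, 81.0%, 74.0%, 86.0% and 76.9% of the heavy chain level in Fpr2KO replicates 1 to 5, against 92.5%, 88.5%, 89.5%, 88.2% and 88.5% in WT replicates 1 to 5. The groups did not overlap, with means of 79.8 ± 4.57% in Fpr2KO and 89.5 ± 1.77% in WT (SD, n = 5). The switched classes together, which are the 4 IgG genes, Igha and Ighe, took 18.0%, 17.9%, 24.5%, 12.8% and 21.1% in Fpr2KO replicates 1 to 5, against 5.88%, 10.4%, 9.997%, 10.4% and 10.7% in WT replicates 1 to 5. Their mean share was 18.9 ± 4.33% in Fpr2KO and 9.48 ± 2.03% in WT, with no overlap. Because the shares of a library add up to the whole and Ighd took little, this largely restates the Ighm share. Counts are per gene, so the switched share describes RNA level and does not give the fraction of cells that had switched. The make-up of that switched part differed among the Fpr2KO libraries: IgG took 19.2% of the heavy chain level and Igha 5.36% in replicate 3, while IgG took 5.53% and Igha 15.5% in replicate 5. The 4 IgG genes together averaged 11.9 ± 5.46% in Fpr2KO and 7.68 ± 1.88% in WT (SD, n = 5), and these groups overlapped, with 3 Fpr2KO libraries above all WT libraries. Within the switched part Ighg3 took 7.67 ± 3.51% in Fpr2KO and 15.9 ± 3.47% in WT, and 4 of 5 Fpr2KO libraries were lower than any WT library. Ighd took 1.31 ± 0.499% of the heavy chain level in Fpr2KO and 1.07 ± 0.441% in WT.

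**Figure D3:**
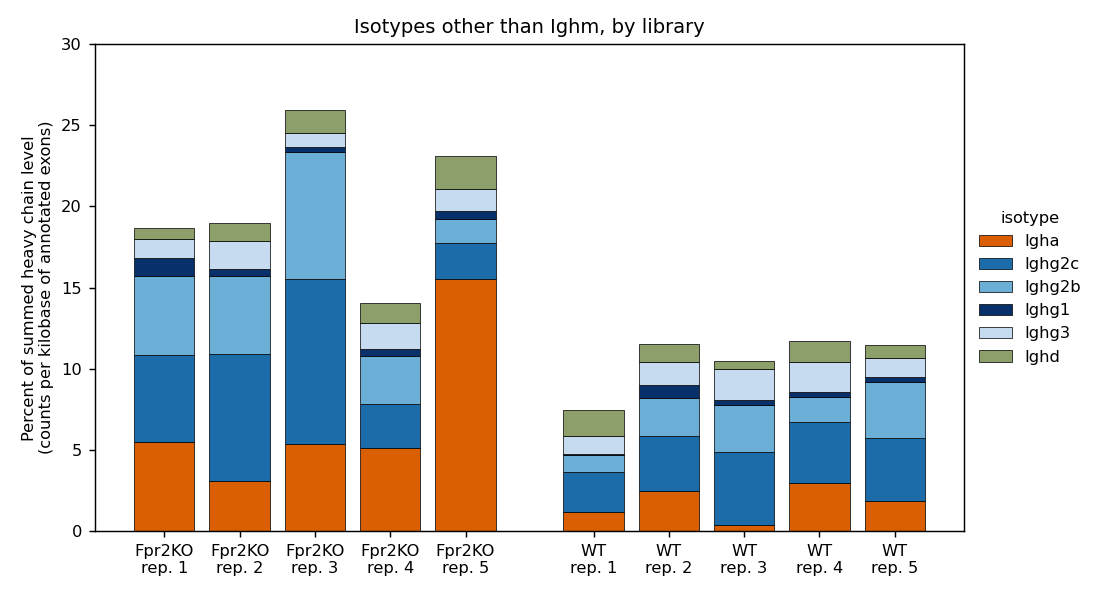
Percent of the summed heavy chain level (counts per kilobase of annotated exons, y axis from 0) taken by each isotype other than Ighm, stacked, in each library, Fpr2KO on the left and WT on the right. Ighe is too small to draw. The Igha segment is taller in each Fpr2KO library (3.08% to 15.5%) than in any WT library (0.420% to 2.97%), and the IgG sum spreads more within Fpr2KO (5.53% to 19.2%) than within WT (4.64% to 9.57%).

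Ratios of reads to Jchain varied little for Ighm and Igkc and widely for Igha. Ighm had 573 ± 70.6 reads per 100 reads of Jchain in Fpr2KO and 681 ± 57.2 in WT (SD, n = 5), and Igkc 282 ± 40.0 in Fpr2KO and 293 ± 19.9 in WT. Over the 10 libraries the highest of these ratios was 1.598 times the lowest for Ighm and 1.51 times for Igkc. Igha, whose dimers also carry the J chain, had 50.7, 34.9, 57.03, 54.0 and 139 reads per 100 reads of Jchain in Fpr2KO replicates 1 to 5, against 12.7, 24.9, 5.17, 31.6 and 19.6 in WT replicates 1 to 5. The highest was 26.9 times the lowest, and every Fpr2KO library lay above every WT library. The ratio uses the same Igha counts as the CPM and the shares, so it is not a separate observation. The summed IgG genes, which do not bind the J chain, had 92.9 ± 43.8 reads per 100 reads of Jchain in Fpr2KO and 62.9 ± 19.6 in WT.

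Variation among libraries of the same genotype was then compared between members and cell markers, as log2 CPM after subtracting group means (8 relations, 10 libraries, exact permutation tests over 14400 pairings within groups, two-sided, adjusted by Benjamini-Hochberg over the 8). Jchain went with Igkc (Pearson's r = 0.98, p = 0.000486, adjusted p = 0.00194; Spearman's rho = 0.98, p = 0.000972, adjusted p = 0.005; exact permutation). Jchain also went with Ighm (r = 0.98, p = 0.000417, adjusted p = 0.00194; rho = 0.95, p = 0.00125, adjusted p = 0.005; exact permutation). With the mean of 19 plasma cell genes, such as Xbp1, the transcription factor of the secretory programme, Jchain had r = 0.97 (p = 0.00132, adjusted p = 0.00352; rho = 0.95, p = 0.0025, adjusted p = 0.00667; exact permutation). Without the 2 libraries farthest from the median, r was 0.98 for Igkc (Fpr2KO replicates 1 and 5 left out), 0.97 for Ighm (Fpr2KO replicate 5 and WT replicate 3) and 0.94 for the plasma cell genes (Fpr2KO replicates 1 and 5), the last with an adjusted exact permutation p = 0.0528 over the 8 libraries left. The points of each relation share libraries and their scaling.

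Ighd and Ighm are spliced from one primary transcript in B cells, and across libraries the relation between them did not pass (r = 0.17, p = 0.655, adjusted p = 0.875; rho = -0.12, p = 0.774, adjusted p = 0.846; exact permutation). Ighd went with the mean of 16 B cell identity genes, such as the receptor subunits Cd79a and Cd79b (r = 0.83, p = 0.0174, adjusted p = 0.0347; rho = 0.83, p = 0.0126, adjusted p = 0.0251; exact permutation). Without the 2 libraries farthest from the median, WT replicates 2 and 3, r was 0.77 and no longer passed (adjusted exact permutation p = 0.0528), and without any one of Fpr2KO replicates 1, 3, 4 and 5 the adjusted exact permutation p was between 0.0535 and 0.0896 with r of 0.79 to 0.85. Ighm and the B cell genes had r = 0.16 (p = 0.656, adjusted p = 0.875; rho = 0.10, p = 0.792, adjusted p = 0.846; exact permutation) and r = 0.53 without the 2 farthest libraries.

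For Igha neither relation passed. With Jchain its r was -0.07 (p = 0.853, adjusted p = 0.935; rho = 0.10, p = 0.799, adjusted p = 0.846; exact permutation), and with the plasma cell genes -0.03 (p = 0.935, adjusted p = 0.935; rho = 0.08, p = 0.846, adjusted p = 0.846; exact permutation). Without the 2 farthest libraries these were 0.35 and 0.01, so the signs are not settled. The difference between the relation of Igha and that of Ighm to Jchain was not tested.

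**Figure D4:**
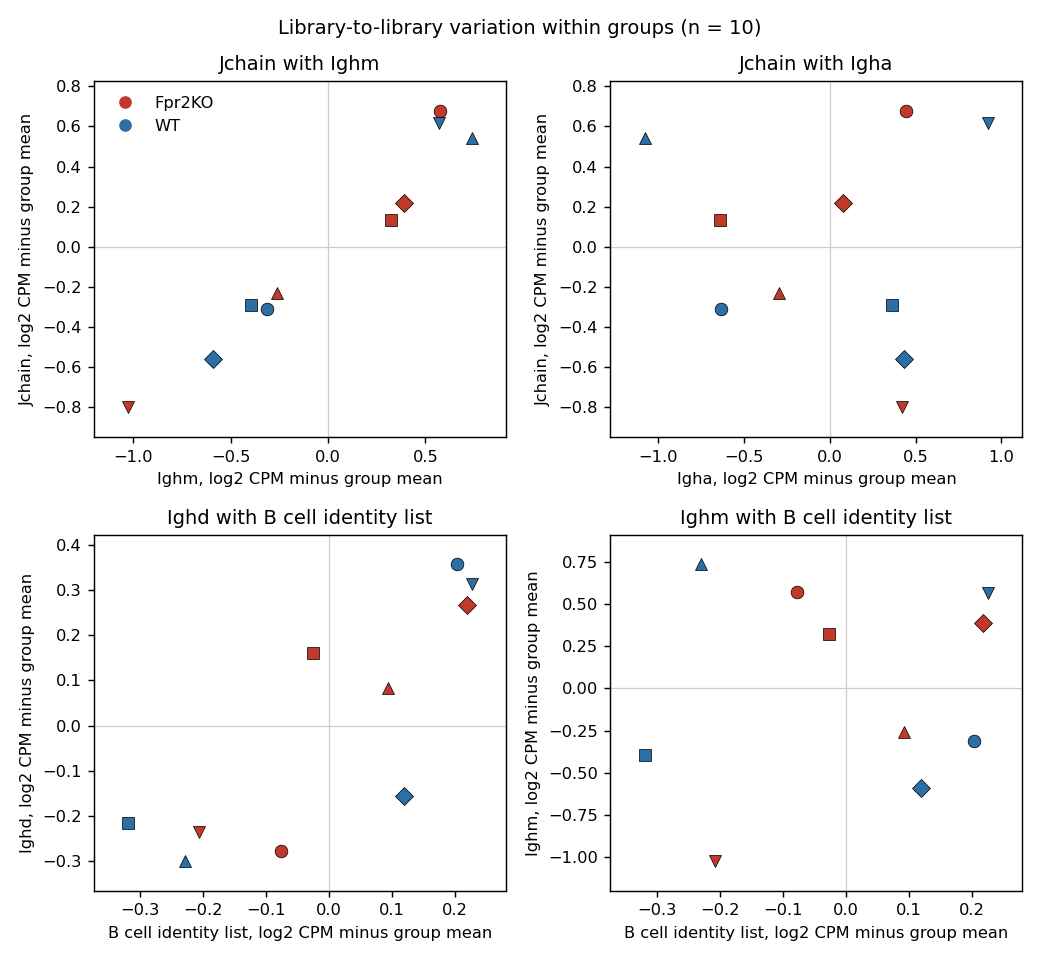
Log2 CPM minus the group mean in each library for Jchain against Ighm and against Igha (top), and for Ighd and Ighm against the mean of 16 B cell identity genes (bottom), Fpr2KO in red and WT in blue, with circle, square, triangle, diamond and inverted triangle for replicates 1 to 5. Pearson's r is 0.98 for Jchain with Ighm, -0.07 for Jchain with Igha, 0.83 for Ighd with the B cell genes and 0.16 for Ighm with them.

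The genes whose log2 CPM, after subtracting group means, was most like that of each member over the 10 libraries, among 12343 tested genes that are not immunoglobulin, pseudogene or predicted genes, are given as a description. For Jchain they were Xbp1 (Pearson's r = 0.98, Spearman's rho = 0.95), the peroxiredoxin Prdx4 (0.97 and 0.99), the calcium-binding protein Calu (0.96 and 0.98), Atp8b2 and Pycr1. For Ighm they were Xbp1 (0.99 and 0.94), Txndc11, Pycr1, Edem1, which acts in the disposal of misfolded glycoproteins, and Clptm1l. For Ighd they were Sptbn1 (0.97 and 0.94), the transcription factors Foxo1 (0.97 and 0.94) and Mef2c (0.96 and 0.99), Snx30 and Slamf6. For Igha the likeness was weaker, and the leading genes included Gpn1 (0.90 and 0.75), Gypc, a red cell membrane protein (0.89 and 0.90), the replication factor Mcm3 and Klf15.

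Genes of the cells that make antibody were counted in the same fit, and 0 members of the lists below passed the FDR by edgeR. Of 20 plasma cell genes 19 were tested, with 13 higher and 6 lower estimates in Fpr2KO, a median log2 fold change of 0.11 against 0.01 over all genes tested, and 0 at an unadjusted p under 0.05. Xbp1 averaged 280.0 ± 50.2 CPM in Fpr2KO and 260.3 ± 54.7 CPM in WT (SD, n = 5; edgeR FDR 0.844), and Mzb1, a chaperone of antibody assembly, 66.1 ± 27.2 CPM in Fpr2KO and 47.2 ± 17.0 CPM in WT (log2 fold change 0.48, SE 0.35, edgeR FDR 0.680). All 16 B cell identity genes had higher estimates in Fpr2KO, with a median log2 fold change of 0.18, and 4 of them had an unadjusted p under 0.05, as had 4.88% of all genes tested in that direction. These included Spib (log2 fold change 0.37, SE 0.13, edgeR FDR 0.382), Cd79b (0.30, SE 0.12, FDR = 0.462) and Cd79a (0.39, SE 0.18, FDR = 0.504). The summed level of the B cell list ran from 4664 to 6248 CPM in Fpr2KO and from 3704 to 5462 CPM in WT, that of the plasma cell list from 2417 to 4310 CPM in Fpr2KO and from 2801 to 4125 CPM in WT, and their part in the Igha values was not tested.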

How the data were processed

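Polyadenylated RNA of F4/80 bead isolates from spleen was sequenced in 10 libraries, 5 Fpr2KO and 5 WT, grouped by the genotype label and numbered by title. The deposited table gives unnormalised counts for each Ensembl gene: whole numbers, with unequal library totals of 15865820 to 19060188. The submitters' processing notes name HTSeq 0.10.0, FastQC 0.10.1, mm10 and GRCm38. The sources used here do not give the aligner, strand setting, treatment of multiply mapped reads or annotation release, so reads of overlapping or antisense genes cannot be told apart. Symbols, exon lengths and coordinates came from GENCODE M21 (GRCm38), and Igkc, Iglc1, Iglc2 and Iglc3 overlap another gene there.

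Counts were fitted in R 4.3.3 with edgeR 4.0.16 (filterByExpr, TMM, robust glmQLFit, glmQLFTest, Fpr2KO over WT, no covariate), with Benjamini-Hochberg adjustment over 14669 genes. The SE is the size of the log2 fold change over the square root of F. CPM used TMM-scaled library sizes, and log2 CPM a prior count of 2. All 20 pairs of libraries within a group differed by more than sampling noise (chi-square per degree of freedom 11.2 to 60.9). The fit and the permutation test were checked on simulated data. The simulated counts for the fit had the same dispersion for every gene, whereas that of Igha exceeded 96.7% of genes tested. The check therefore does not show how the fit performs for genes as variable as Igha. Isotype shares and sums carry no test. Alternatives were RLE and upper quartile scaling, 2 other filters, DESeq2 1.42.0, limma 3.58.1 (voom), immunoglobulin genes left out of library sizes, the replicate number as a block and each library left out.

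The members and the 11 gene lists (119 genes: lambda constant regions, plasma cell, B cell, marginal zone, germinal centre, class switch, antibody receptor, macrophage, T cell, neutrophil and erythroid genes) were chosen with earlier results of these data known. Named were all members, the lambda genes, up to 4 genes of a list by p-value, and the 5 genes most like Jchain, Ighm, Ighd and Igha. Adgre1 and Xbp1 in the comparison of groups were named outside that rule, and some genes it covers are not reported here.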

Additional observations from a re-analysis of the deposited data

Results flagged for a closer look

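In 48 groups of 5 libraries (CPM of 14 genes, isotype shares and the summed share), 7 held a library whose gap to the nearest other exceeded 0.71 of the range of the group, the 95% critical value of Dixon. Chance alone flags about 1 in 20 groups, and the measures are not independent.

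Fpr2KO replicate 1 had 593 CPM of Ighg1, against 82.6 to 194 CPM in the other Fpr2KO libraries, and its Ighg1 share of the heavy chain level was 1.13%, against 0.316% to 0.449%. The same library had 2.28 CPM of Ighe, against 0.328 to 0.654 CPM. Fpr2KO replicate 5 had an Igha share of 15.5%, against 3.08% to 5.51% in the other Fpr2KO libraries. Its CPM of Igha was not flagged, and its CPM of Ighm, which dominates the sum, was the lowest of all libraries (10295 CPM). Fpr2KO replicate 4 had 2.24 CPM of Iglc4, against 0.544 to 0.909 CPM. WT replicate 5 had 1022 CPM of Iglc1, against 280.4 to 349 CPM in the other WT libraries. WT replicate 1 had an Ighe share of 0.0154%, against 0.00271% to 0.00541%.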

How the results depend on the processing

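The count of 10 genes past the FDR by edgeR was 62 with no filter, 185 with DESeq2 and 64 with the replicate block, and 8 to 51 with 1 library left out. The count of members past it was 0, with DESeq2 1 (Igha), and 0 in each fit without 1 library. With the replicate block Igha had a log2 fold change of 1.91 (adjusted p = 0.21 by edgeR) and no member passed. The numbers are not shown to pair the libraries: same-numbered libraries correlated between -0.24 and 0.29, and for 2 of 5 the best match was their own number. Signs of differences near 0 turned: Igkc was 0.0010 with upper quartile scaling and -0.26 to 0.18 without 1 library, and Jchain was -0.0052 with RLE size factors, -0.0027 with the stricter filter, -0.0052 with DESeq2 and -0.21 to 0.16 without 1 library. Leaving out 1 library gave -0.011 to 0.95 for Ighg1, -0.45 to 0.13 for Ighg3, -0.57 to 0.085 for Iglc1, -0.18 to 0.026 for Iglc2, -0.41 to 0.39 for Iglc4 and -0.076 to 0.60 for Rgs13. Igha stayed between 1.60 and 2.06, and its share difference between 2.97 and 6.09 percentage points, 6.84 by raw reads and 7.85 per coding length. Without the 2 farthest libraries r was 0.35 for Jchain with Igha, 0.77 for Ighd with B cell genes, 0.94 for Jchain with plasma cell genes and 0.014 for Igha with plasma cell genes. Without 1 library these were -0.41 to 0.25, 0.79 to 0.92, 0.95 to 0.99 and -0.34 to 0.33, with -0.061 to 0.46 for Ighm with Ighd and -0.12 to 0.44 for Ighm with B cell genes. The cause of these shifts was not tested, beyond the fewer libraries of the fits that left some out. Among the members and lambda genes, depth limits only Ighe and Iglc4, with 72 to 127 reads a group. Some list genes named here were as low, among them Rgs13 (80 reads in Fpr2KO, 59 in WT) and Fcer1a (102 in Fpr2KO, 159 in WT).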

Other observations

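Genes that carry out class switching or mark germinal centres had small differences between genotypes. Of 16 class switch recombination genes 11 had higher and 5 lower estimates in Fpr2KO, and of 8 germinal centre genes 6 higher and 2 lower, with 0 at an unadjusted p under 0.05 in either list. The median log2 fold changes were 0.06 and 0.14, against 0.01 over all genes tested. Ung, a uracil glycosylase of the switching pathway, had a log2 fold change of 0.22 (SE 0.15, edgeR FDR 0.644).

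Receptors and carriers of antibody showed both directions, with 6 of 12 estimates higher and 6 lower. Pigr, which carries IgA and IgM across epithelia, was measured at 2.27 ± 0.804 CPM in Fpr2KO and 1.64 ± 0.483 CPM in WT, and Fcmr, the IgM receptor of B cells, at 222 ± 30.5 CPM in Fpr2KO and 195 ± 32.0 CPM in WT (SD, n = 5; edgeR FDRs 0.625 and 0.643). Fcer1a, a subunit of the IgE receptor of mast cells and basophils, was measured at 1.16 ± 0.325 CPM in Fpr2KO and 1.82 ± 0.612 CPM in WT (edgeR FDR 0.473). Of 8 marginal zone B cell genes 5 had higher estimates, among them Cd1d1 (log2 fold change 0.20, SE 0.09, edgeR FDR 0.489), and Cd9 had a lower one (-0.24, SE 0.09, FDR = 0.422). Of 8 T cell markers 6 had higher and 2 lower estimates, against 53.2% higher over all genes tested, with a median log2 fold change of 0.24. In the edgeR fit 1 of them was higher at an unadjusted p under 0.05, as were 4.88% of all genes tested. Of 12 macrophage markers 7 had higher estimates, led by the haptoglobin-haemoglobin receptor Cd163 (log2 fold change 0.46, SE 0.10, edgeR FDR 0.135), which passed without WT replicate 5 (FDR = 0.0373), with no filter (0.0356), with the replicate block (0.0409) and with DESeq2 (0.0041).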
